A study of Homo sapiens with 3 samples.

Results

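The SOXB genes were followed in primitive neural progenitor cells (pNPCs), an early neural stage that renews itself in culture. The members were chosen by name and number 6 of the 62754 genes in the tables. They are the SOXB1 genes SOX1, SOX2 and SOX3, the SOXB2 genes SOX14 and SOX21, and SOX2-OT, the long non-coding transcript whose gene encloses SOX2. Polyadenylated RNA was sequenced from 1 group of 3 wild-type replicates, made from H1, a widely used embryonic stem cell line. The cells were grown with FGF2, leukaemia inhibitory factor, the GSK3 inhibitor CHIR99021, the TGF-beta receptor inhibitor SB431542 and the ROCK inhibitor Y-27632. All libraries come from that 1 line. Nothing in the labels says that the replicates were grown apart, and a p-value here therefore speaks only of the spread among these libraries, which may be technical.

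SOXB proteins bind DNA through an HMG box and act with partner factors, often of the POU class. SOX1, SOX2 and SOX3 are activators that overlap in function and hold neural progenitors in an undifferentiated state. In chick and mouse, SOX14 and SOX21 act mainly as repressors of the same kind of target. SOX2 is also a core factor of pluripotent cells, so its RNA alone does not name a neural cell.

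Of 6 neural progenitor markers 4 were detected (VIM, NES, CDH2 and MSI1), and of 5 pluripotency markers 1 was, DPPA4, while PRDM14 and TDGF1 had 0 counts. A TPM of at least 1 in all 3 libraries counted as detected. Of protein-coding genes 62.2% reached it, and 4 of 6 lies near that share. The labelled cell type has part of its defining markers, with PAX6 below 1 TPM in all libraries and HES5 below 1 TPM in replicate 2. All 5 neural crest and all 5 mesenchyme markers were detected, and so were all 5 neuron markers. Replicate 1 stood apart from the others, with a chi-square of gene counts per degree of freedom of 82.4 against replicate 2 and 82.5 against replicate 3, and of 19.4 between replicates 2 and 3. The libraries held 30038114 to 38400092 expected counts, and values are given per library.

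The 5 coding members are single-exon genes whose HMG boxes are nearly the same at the level of DNA, and this bears on how well reads can be told apart. The 90 coding bases of SOX2 that are most alike in the other members, inside the HMG box, are given for each gene (GRCh38, GENCODE release 29, 5′ to 3′), with capitals for bases that differ from SOX2.
SOX2 (chr3:181712487-181712576, strand +): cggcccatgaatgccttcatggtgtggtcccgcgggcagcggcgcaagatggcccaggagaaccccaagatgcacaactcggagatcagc
SOX1 (chr13:112067815-112067904, strand +): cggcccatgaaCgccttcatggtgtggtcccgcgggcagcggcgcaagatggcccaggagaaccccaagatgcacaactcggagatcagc
SOX3 (chrX:140504551-140504640, strand -): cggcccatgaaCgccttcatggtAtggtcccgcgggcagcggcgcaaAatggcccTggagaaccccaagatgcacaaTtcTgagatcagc
SOX21 (chr13:94711933-94712022, strand -): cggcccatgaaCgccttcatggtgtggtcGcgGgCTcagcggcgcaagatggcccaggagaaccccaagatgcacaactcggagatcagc
SOX14 (chr3:137764812-137764901, strand +): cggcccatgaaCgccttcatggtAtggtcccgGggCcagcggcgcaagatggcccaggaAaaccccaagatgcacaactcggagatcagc
Over these 90 bases SOX1 differed from SOX2 at 1 base, SOX21 and SOX14 at 5 bases each and SOX3 at 6 bases. The longest unbroken run shared by whole transcripts was 89 bases for SOX1 and SOX2, 60 bases for SOX1 and SOX21 and also for SOX2 and SOX21, and at most 32 bases for the other pairs. The deposited counts of SOX1, SOX2, SOX3 and SOX21 were nevertheless whole numbers in every library, with no fraction of a read divided among genes. SOX2-OT had a fractional count in each library. It has 119 transcripts in the deposited table. Among the 90 transcripts of GENCODE release 29 no SOX2-OT exon overlaps the SOX2 exon, and the longest run shared with SOX2 is 13 bases.

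In total 5 of the 6 members were detected, SOX14 being the exception, where detected means a TPM of at least 1 in all 3 libraries. TPM is a level per transcript length, with a fixed sum in each library. Over all genes this level was reached by 23.0%, and over protein-coding genes by 62.2%. By mean TPM SOX2 and SOX3 were the high members, SOX21 and SOX1 lay about an order of magnitude lower, and SOX2-OT lay lower still. In replicate 2, however, SOX2-OT at 2.29 TPM stood above SOX21 at 1.84 TPM.

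SOX2 (ENSG00000181449.4, chromosome 3, 181711925 to 181714436), the factor shared by pluripotent and neural stem cells, had 97.84, 46.32 and 63.42 TPM in replicates 1, 2 and 3. These levels rested on 5703, 2720 and 2892 expected counts, with Poisson 95% intervals of 5560 to 5850, 2620 to 2820 and 2790 to 3000, which cover counting error only. Replicate 1 was thus high and replicate 2 low, far beyond counting error, and the mean was 69.2 ± 26.2 TPM (SD, n = 3). In bulk RNA, fewer cells of a type and less RNA per cell cannot be told apart. Among 19855 protein-coding genes SOX2 ranked 1408, 3405 and 2434 in replicates 1, 2 and 3.

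SOX3 (ENSG00000134595.9, chromosome X, 140502985 to 140505069), a SOXB1 gene of the early neural plate, had 85.78, 36.1 and 41.99 TPM in replicates 1, 2 and 3, from 4070, 1719 and 1552 expected counts. Replicate 1 again stood above the others, which were close to each other. The mean was 54.6 ± 27.1 TPM (SD, n = 3), and SOX3 ranked 1641, 4253 and 3725 among protein-coding genes.

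SOX1 (ENSG00000182968.5, chromosome 13, 112067149 to 112071706), the SOXB1 gene most restricted to neural cells, had 8.16, 3.28 and 5.19 TPM in replicates 1, 2 and 3, from 899, 367 and 452 expected counts. It kept the order of SOX2, with replicate 1 high and replicate 2 low, at a mean of 5.54 ± 2.46 TPM (SD, n = 3).

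SOX21 (ENSG00000125285.6, chromosome 13, 94709622 to 94712545), a SOXB2 gene that opposes SOXB1 factors in chick, had 12.25, 1.84 and 8.14 TPM in replicates 1, 2 and 3. Its 842, 128 and 439 expected counts had Poisson 95% intervals of 786 to 901, 107 to 152 and 399 to 482. Replicate 2 was far below the others, and the highest library exceeded the lowest 6.66 times, the widest ratio among the detected members.

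SOX14 (ENSG00000168875.3, chromosome 3, 137764315 to 137766334), the other SOXB2 gene, had 0 counts in all 3 libraries. At 3 counts its level would have been 0.0655, 0.0653 and 0.0842 TPM in replicates 1, 2 and 3, so a level under these values could have been missed in a single library.

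SOX2-OT (ENSG00000242808.12, chromosome 3, 181056680 to 181742228 on the strand of SOX2), a transcript linked to SOX2 regulation, had 2.17, 2.29 and 2.92 TPM in replicates 1, 2 and 3, from 115.5, 109.98 and 74.94 expected counts. The library with the most counts had the lowest TPM. The effective length behind these values was 2098.87, 1850.06 and 1268.16 bases, a value weighted by the estimated mix of its isoforms, while each coding member has 1 transcript.

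**Figure D1:**
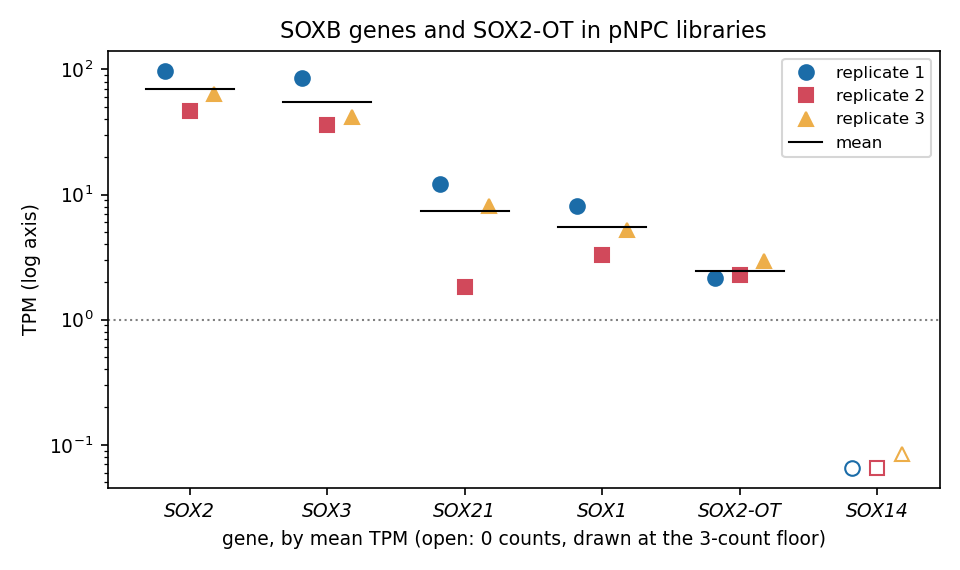
TPM of each member on a log axis, with 1 point per library and a line at the mean, and a dotted line at the detection minimum of 1 TPM. SOX2 and SOX3 lie between 36.1 and 97.84 TPM in every library, and the open SOX14 points mark 0 counts, drawn at the TPM of 3 counts.

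By mean TPM the order was SOX2, SOX3, SOX21, SOX1, SOX2-OT and SOX14. Neighbours were compared within each library on the log2(TPM + 0.1) scale and called apart when the sign was shared by all libraries and the mean difference exceeded 2 SD. SOX2 exceeded SOX3 by 0.38 ± 0.20 log2 units (SD, n = 3), with 0.19, 0.36 and 0.59 in replicates 1, 2 and 3. The sign was shared, but the difference was within 2 SD. SOX3 exceeded SOX21 by 3.12 ± 0.98 (n = 3), apart by this rule. SOX21 and SOX1 could not be ordered, at 0.58, -0.80 and 0.64 in replicates 1, 2 and 3, so SOX21 was the lower of the pair in replicate 2. SOX1 exceeded SOX2-OT by 1.06 ± 0.71 (n = 3), within 2 SD. SOX2-OT lay apart from SOX14, which is listed at 0. A sign-flip permutation test, exact and two-sided, gave p = 0.25 for the 4 pairs with a shared sign and p = 1 for SOX21 against SOX1, and with n = 3 it cannot go below 0.25.

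The shares of the SOXB1 genes among SOXB coding transcripts varied less than their levels. The summed SOXB level was 204.0, 87.54 and 118.7 TPM in replicates 1, 2 and 3. SOX2 took 48.0%, 52.9% and 53.4% of it, with a mean of 51.4 ± 3.02% (SD, n = 3). SOX3 took 42.0%, 41.2% and 35.4%, and SOX1 took 4.0%, 3.75% and 4.37%. The SOX1 share differed little between libraries although the SOX1 level itself varied 2.49 times.

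SOXB1 genes together held 94.0%, 97.9% and 93.1% of the SOXB sum in replicates 1, 2 and 3, and the remainder was SOX21. The SOX21 share was 6.0%, 2.1% and 6.86%, so it was replicate 2 that stood apart. As a share of SOXB counts, not scaled for length, SOX21 had 7.31% (exact Clopper-Pearson 95% interval 6.84 to 7.8), 2.59% (2.17 to 3.08) and 8.23% (7.5 to 9.0). The replicate 2 interval is separate from the others. SOX14 had 0 of 11514, 4934 and 5335 SOXB counts. Of the sum of all 6 members, SOX2-OT held 1.05%, 2.55% and 2.4%, lowest in replicate 1, where the coding members were highest.

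**Figure D2:**
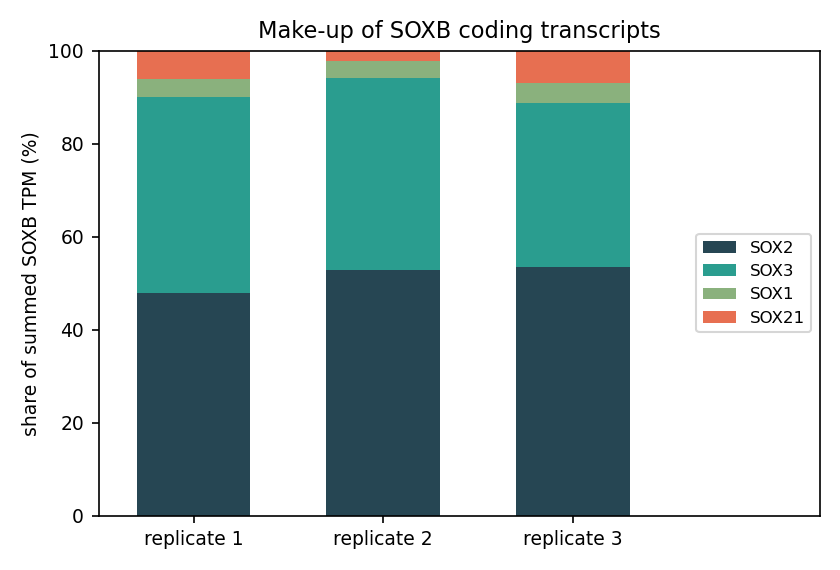
Share of the summed SOXB TPM (%) held by each detected coding gene in each library. SOX2 and SOX3 make up most of every bar, and the SOX21 part shrinks to 2.1% in replicate 2.

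Ratios within a library show the same. SOX3 stood at 0.877, 0.779 and 0.662 times the TPM of SOX2 in replicates 1, 2 and 3, and SOX1 at 0.0834, 0.0708 and 0.0818 times. SOX21 stood at 0.125, 0.0397 and 0.128 times SOX2, level in replicates 1 and 3 and lower in replicate 2. SOX2 exceeded its enclosing transcript SOX2-OT 45.1, 20.2 and 21.7 times.

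All 4 detected coding members, SOX1, SOX2, SOX3 and SOX21, were highest in replicate 1 and lowest in replicate 2. Among detected genes 11.5% had that order, and SOX2-OT did not. Each of the 4 also reached at least 1.5 times the higher of the other libraries in replicate 1, by 1.57 for SOX1, 1.54 for SOX2, 2.04 for SOX3 and 1.5 for SOX21, against 2.09% of detected genes. The limit of 1.5 lies at the value of SOX21 and just under those of SOX2 and SOX1, so a slightly higher limit would pass fewer members. The members were also chosen with earlier values known and share their libraries, so these counts are a description. Replicate 1 is also the library that stood apart over the whole table. Without replicate 1 the mean levels were 54.9 TPM for SOX2, 39.0 for SOX3, 4.24 for SOX1, 4.99 for SOX21 and 2.6 for SOX2-OT.

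On the log2 CPM scale, which is not scaled for length, replicate 1 exceeded the mean of replicates 2 and 3 by 1.01 for SOX2, 1.3 for SOX3, 1.13 for SOX1 and 1.80 for SOX21. The SOX21 value rests largely on replicate 2, with levels of 4.62, 1.77 and 3.86 log2 CPM in replicates 1, 2 and 3. The median over the 17046 genes tested was -0.0054. SOX2-OT was 0.33 higher in replicate 1 by CPM and 0.24 lower, at -0.24, on the log2(TPM + 0.1) scale, so it had no direction that held across scales.

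Spread between replicates beyond the trend of genes of like abundance was tested with edgeR over all genes, at a Benjamini-Hochberg adjusted p of 0.05. Of all genes tested 1.59% were called. Of the 5 members that passed the low-count filter, SOX21 (edgeR adjusted p = 5.2e-05) and SOX3 (edgeR adjusted p = 0.0112) were called. SOX2, SOX1 and SOX2-OT were not called (edgeR adjusted p = 0.136, 0.185 and 1). Once each library's trend with transcript length was taken out (1.84% of genes called), SOX2 (edgeR adjusted p = 0.00927) and SOX1 (0.00967) passed the threshold too. The SOX21 call rested on replicate 2, without which its edgeR adjusted p was 1. Over the other alternatives tried (DESeq2 size factors and dispersions among them), the adjusted p of SOX21 ranged from 1.88e-06 to 0.00045. That of SOX3 ranged from 0.000394 to 0.0184 where all 3 libraries were kept. The SOX3 call was lost without any 1 of the replicates, with edgeR adjusted p of 1, 0.368 and 0.115 without replicates 1, 2 and 3, where 0.669%, 0.551% and 0.592% of all genes were called.

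**Figure D3:**
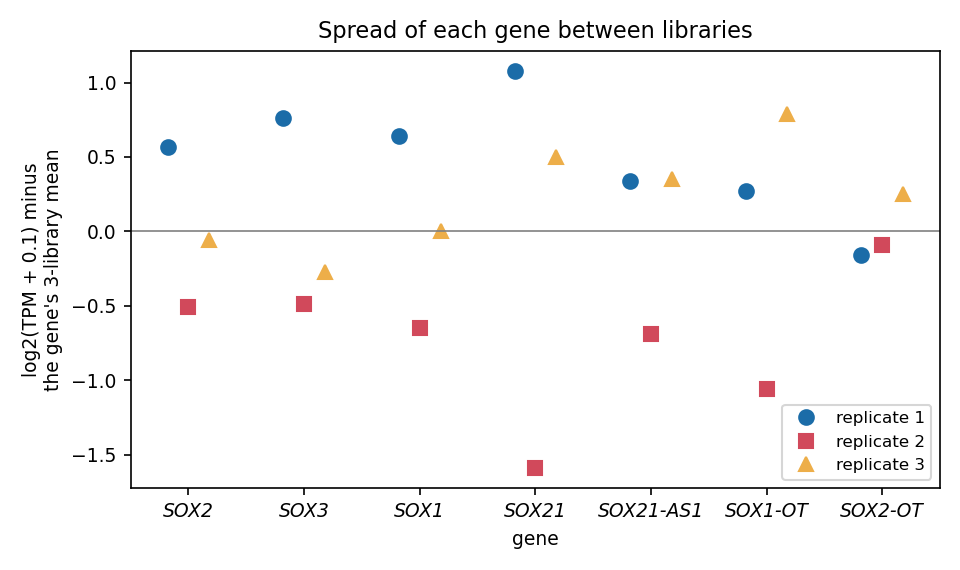
Level of each gene in each library as log2(TPM + 0.1) minus its own mean over 3 libraries, for the detected members and the transcripts SOX21-AS1 and SOX1-OT. The SOX2, SOX3 and SOX1 points fall in 1 order with replicate 1 on top, SOX21 in replicate 2 lies lowest at -1.59, and SOX2-OT stays within 0.25 of its mean.

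SOX21 lies head to head with SOX21-AS1 (ENSG00000227640.5, chromosome 13, 94712716 to 94715945), a long non-coding RNA on the other strand whose RefSeq start lies 171 bases from that of SOX21. SOX21-AS1 had 4.23, 2.01 and 4.25 TPM in replicates 1, 2 and 3, from 319, 132 and 217 expected counts, and like SOX21 it was lowest in replicate 2. SOX21 stood at 2.90, 0.915 and 1.92 times SOX21-AS1, so the coding gene varied more than its neighbour. The edgeR adjusted p of SOX21-AS1 for excess spread was 0.674. SOX1-OT (ENSG00000224243.2), whose RefSeq locus encloses SOX1 on the same strand, had 2.02, 0.74 and 2.94 TPM from only 18, 5 and 16 expected counts and was not detected in replicate 2. The sources used here do not state strandedness, so reads of genes that overlap on opposite strands cannot be told apart, but the RefSeq loci of SOX21 and SOX21-AS1 lie 170 bases apart.

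RefSeq gives promoter windows for 5 of the members, each with 250 bases before and 50 after the transcript start (GRCh38.p14). Those of SOX2 and SOX3, which hold most of the SOXB RNA, and of SOX21, whose window also covers the start of SOX21-AS1, are printed with capitals for motif matches.
SOX2 (chr3:181711675-181711974, strand +): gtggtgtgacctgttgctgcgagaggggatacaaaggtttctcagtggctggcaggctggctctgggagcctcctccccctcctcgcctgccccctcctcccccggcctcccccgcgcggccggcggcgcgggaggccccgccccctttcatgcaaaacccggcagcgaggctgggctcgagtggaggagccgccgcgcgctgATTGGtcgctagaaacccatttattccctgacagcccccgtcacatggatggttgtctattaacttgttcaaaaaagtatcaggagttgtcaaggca
SOX3 (chrX:140505020-140505319, strand -): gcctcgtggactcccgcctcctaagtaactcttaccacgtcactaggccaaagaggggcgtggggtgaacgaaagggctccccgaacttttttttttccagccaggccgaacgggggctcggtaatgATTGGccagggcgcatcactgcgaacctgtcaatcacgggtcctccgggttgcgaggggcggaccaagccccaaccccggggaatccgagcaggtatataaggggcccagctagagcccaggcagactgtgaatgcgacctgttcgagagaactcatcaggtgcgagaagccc
SOX21 (chr13:94712496-94712795, strand -): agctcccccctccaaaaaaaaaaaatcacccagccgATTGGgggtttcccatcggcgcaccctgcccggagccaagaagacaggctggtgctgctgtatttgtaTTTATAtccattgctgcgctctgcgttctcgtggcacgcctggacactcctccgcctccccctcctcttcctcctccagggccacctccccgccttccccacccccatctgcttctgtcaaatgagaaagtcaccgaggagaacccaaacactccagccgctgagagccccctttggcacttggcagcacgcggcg
Motifs were searched on both strands, and no matches overlapped in these windows. Every match in capitals lies on the strand opposite the gene, so the printed letters are the reverse complement of the motif. CCAAT, the NF-Y box, occurred once in each of these 3 windows, and 34.6% of the 35116 RefSeq windows hold it. TATAAA occurred once in the SOX21 window, with 11.5% of all windows holding it. Neither ATGCAAAT, the octamer of POU factors (1.77% of windows), nor AACAATG, a SOX-type motif (3.33%), occurred in them. Of the 3 SOX2-OT windows, 1 held a CCAAT and a TATAAA match, 1 held an AACAATG match and 1 held no match. The SOX1 window held 0 matches of the 4 motifs but the most CG dinucleotides, 37, against 20 for SOX2, 20 for SOX3, 15 for SOX21 and a median of 14 over all windows. A match is a description of letters and says nothing of binding in these cells.

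The other SOX genes showed where SOXB stands in the family. Of 14 other SOX genes 10 were detected, against 62.2% of protein-coding genes. SOXB genes held 42.4%, 25.4% and 30.6% of the summed TPM of 19 SOX genes in replicates 1, 2 and 3, a mean of 32.8 ± 8.72% (SD, n = 3). By counts not scaled for length the mean was 18.9%. SOX11, for example, has a listed length of 9002 bases and SOX2 of 2512 bases. The SOXC genes SOX4, SOX11 and SOX12, known from progenitors and young neurons, held 29.8%, 34.3% and 34.4% of the family TPM, a mean of 32.8%. By counts not scaled for length their mean share was 50.8%, so the means of SOXB and SOXC were close only per length. Library by library even the TPM shares differed, with SOXB above SOXC in replicate 1 (42.4% against 29.8%) and below it in replicates 2 and 3. SOX2 was the highest SOX gene by mean TPM, but in replicate 2 it stood at 46.32 TPM, below the 55.1 TPM of SOX9, a gene of glial progenitors and neural crest.

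The SOXC gene SOX4 had 36.77, 35.9 and 38.5 TPM in replicates 1, 2 and 3, nearly level by TPM. With the length trend removed, its replicate 1 level exceeded the mean of replicates 2 and 3 by 0.72 log2 CPM. SOX5, a SOXD gene of neural crest and neurons, had 4.68, 11.74 and 14.08 TPM and SOX6 had 4.29, 8.67 and 9.67 TPM, both lowest in replicate 1 by TPM. With the length trend removed, the same difference was -0.56 for SOX5, still lowest in replicate 1, and 0.36 for SOX6. SOX13, the other SOXD gene, had 43.69, 30.7 and 37.68 TPM and the SOXC gene SOX12 had 59.08, 41.75 and 45.41 TPM, and both were highest in replicate 1 and lowest in replicate 2, as the SOXB genes were. Of the 14 other SOX genes 4 were highest in replicate 1 by TPM and 6 were lowest there. Those 6 include the undetected SOX7 and SOX18, at most 0.54 and 0.12 TPM. The share of all genes highest or lowest in replicate 1 is not given here, so these counts are a description. SOX4, SOX6, SOX9 and SOX11 were also highest in replicate 1 once the length trend was removed. SOX17, an endoderm gene, had 0 counts in all libraries.

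**Figure D4:**
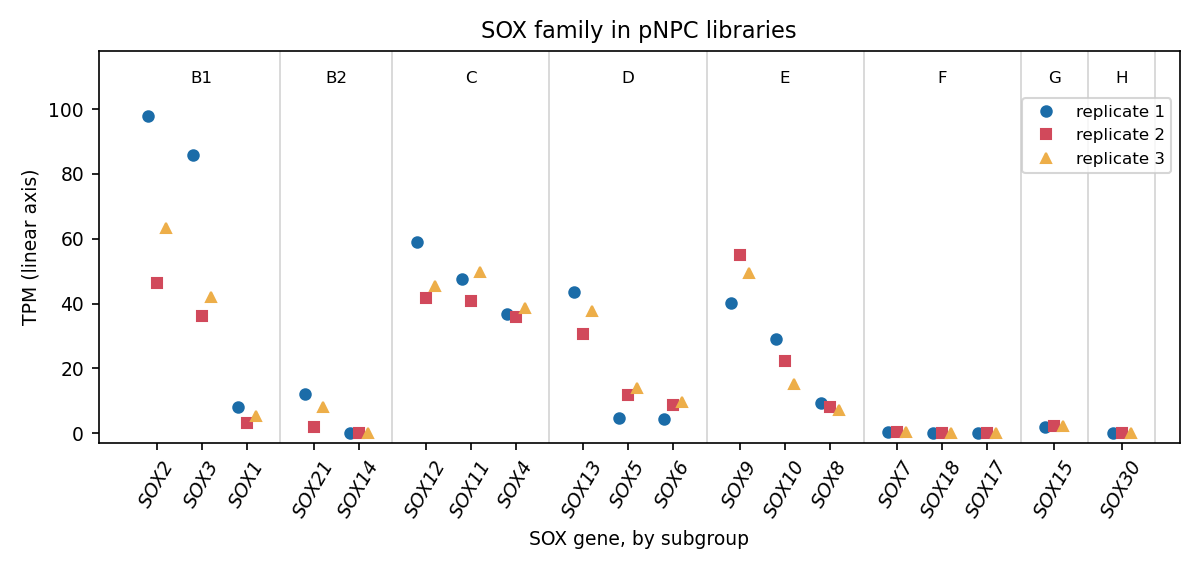
TPM on a linear axis of 19 SOX genes by subgroup, with 1 point per library. SOX2 in replicate 1 is the highest point at 97.84 TPM, and the SOXC gene SOX4 is nearly level at 35.9 to 38.5 TPM.

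Among partner factors of SOXB proteins, 6 of 8 were detected, against 62.2% of protein-coding genes. The list median was 3.74 log2(TPM + 1), against 2.86 over protein-coding genes. The POU genes of class III were present, with POU3F3 at 57.89, 29.68 and 33.69 TPM, POU3F2 at 20.53, 9.99 and 13.42 TPM and POU3F1 at 14.0, 7.49 and 11.19 TPM in replicates 1, 2 and 3. These 3 followed the order of SOX2, and POU3F4 at 10.35, 10.31 and 9.17 TPM did not. POU5F1, the partner of SOX2 in pluripotent cells, had 0.11, 0.08 and 0.14 TPM, and PAX6, its partner in lens and neural ectoderm, had 0.13, 0.81 and 0.38 TPM. CHD7, a chromatin remodeler that binds SOX2, had 59.03, 79.37 and 100.18 TPM and was lowest in replicate 1 by TPM. With the length trend removed it was highest there, by 0.28 log2 CPM over the mean of replicates 2 and 3.

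The 5 protein-coding genes whose pattern was nearest to that of SOX2 were POU3F2, TM7SF2, LTBP4, ANKRD9 and SCG3. Likeness was the root-mean-square difference of centred log2(TPM + 0.1) over 3 libraries, 0.019 for POU3F2, 0.022 for TM7SF2 and 0.023 for LTBP4, among 8773 genes with a mean of at least 10 TPM. Of these genes 11 lay within 0.1, and so did the member SOX1 at 0.096, whose mean is under 10 TPM, while SOX3 lay at 0.17 and SOX21 at 0.76. A pattern of 3 libraries holds little information, so nearness is a description.

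Genes reported to regulate SOX2 had 5 of 7 detected, against 62.2% of protein-coding genes, and the median of the list was 4.59 log2(TPM + 1). ZIC2, a dorsal neural factor, was the highest at 140.17, 103.56 and 109.34 TPM in replicates 1, 2 and 3. The hedgehog effector GLI2 had 12.13, 17.26 and 19.55 TPM and E2F3 had 17.82, 25.71 and 26.65 TPM, both lowest in replicate 1 by TPM. With the length trend removed both were highest there, by 0.55 and 0.13 log2 CPM over the mean of replicates 2 and 3. The cell cycle inhibitors CDKN1A and CDKN1B, which repress SOX2 in mouse, averaged 63.0 ± 2.19 and 50.6 ± 2.46 TPM (SD, n = 3). OTX2 at 0.83, 1.68 and 1.49 TPM missed detection in replicate 1, and TBX6, which represses SOX2 in mouse mesoderm, had at most 0.32 TPM.

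Reported SOXB1 targets had 7 of 9 detected, against 62.2% of protein-coding genes. The median of the list was 5.45 log2(TPM + 1), but by TPM they did not vary as 1 group. LIN28A, an RNA-binding protein of early progenitors, had 460.85, 259.84 and 256.37 TPM in replicates 1, 2 and 3, and FABP7, a fatty acid binding protein of radial glia, had 137.65, 77.37 and 92.6 TPM. Both were highest in replicate 1 with SOX2. NES, the nestin gene, had 156.57, 194.51 and 191.43 TPM, LIN28B had 30.01, 50.77 and 50.92 TPM and NOTCH1 had 18.33, 26.38 and 29.6 TPM, all lowest in replicate 1 by TPM. With the length trend removed, NES, LIN28B and NOTCH1 were instead highest in replicate 1. They exceeded the mean of replicates 2 and 3 by 0.60, 0.12 and 0.56 log2 CPM. LIN28A and FABP7 stayed highest there. HES5, a NOTCH target, had 6.76, 0.72 and 5.66 TPM, low in replicate 2 as SOX21 was (edgeR adjusted p for excess spread = 0.0034, with 1.59% of all genes called). SHH, the hedgehog ligand, had at most 0.05 TPM.

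The summed level of the mesenchyme markers was 533.1, 1183 and 839.0 TPM in replicates 1, 2 and 3, in the reverse of the SOXB order. All 5 of these markers (COL1A1, COL1A2, PRRX1, LUM and TWIST1) were lowest in replicate 1 by TPM. The share of all genes lowest in replicate 1 is not given here, so the count is a description. With the length trend removed, COL1A2 had 9.55, 10.01 and 9.35 log2 CPM in replicates 1, 2 and 3 and was lowest in replicate 3. The other mesenchyme markers stayed lowest in replicate 1. Neural crest markers summed to 148.9, 201.7 and 180.2 TPM, but they split. By TPM 3 of 5 were lowest in replicate 1 and 2 of 5, SOX10 and FOXD3, were highest there. TFAP2B was highest there too once the length trend was removed. Neuron markers summed to 540.8, 377.9 and 392.9 TPM, mostly TUBB3 at 478.32, 323.76 and 323.36 TPM. Of the 5 neuron markers 3 were highest in replicate 1 by TPM, while MAP2 was lowest there and DCX was highest in replicate 3. MAP2 and DCX were also highest in replicate 1 once the length trend was removed. Neural progenitor markers summed to 2226, 2458 and 2102 TPM, mostly VIM, and this sum did not follow the SOXB genes. By TPM the 6 markers split, with 1, HES5, highest in replicate 1 and 2, NES and PAX6, lowest there. NES and CDH2 were highest in replicate 1 once the length trend was removed. CDH2, MSI1 and HES5 were lowest in replicate 2, as the SOXB genes were. The sum over the SOXB genes with SOX2-OT was 206.2, 89.83 and 121.7 TPM. The part of these marker levels in the SOXB spread was not tested.

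**Figure D5:**
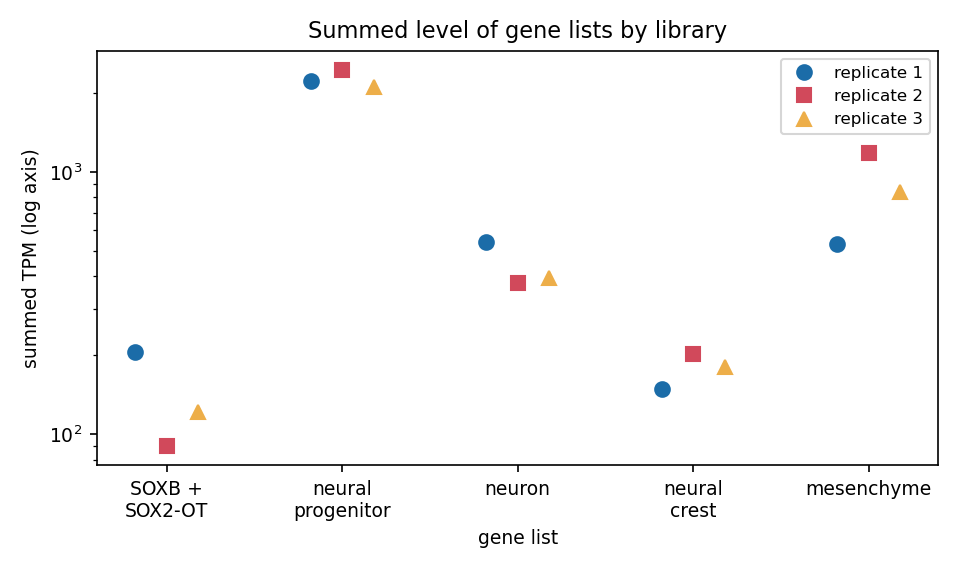
Summed TPM on a log axis of the SOXB genes with SOX2-OT and of 4 marker lists, with 1 point per library. The SOXB sum is highest in replicate 1 (206.2 TPM) and lowest in replicate 2 (89.83 TPM), and the mesenchyme sum is lowest in replicate 1 (533.1 TPM) and highest in replicate 2 (1183 TPM).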

How the data were processed

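RNA-seq libraries of 3 wild-type pNPC replicates form 1 group by their titles. RSEM 1.3.1, STAR 2.7.11a and Trim Galore 0.6.10 are named with the build GRCh38 in the submitters' processing notes, without role or order. Which annotation release was used is not stated there. Per the file headers, the deposited tables give an expected count per gene, an unnormalized estimate in which a read fitting several genes is divided. In each library 86.8% or more of these values, zeros included, were whole to within 0.005. The TPM column, per the file headers, is the authors' value per effective length with a fixed library sum. FPKM, per the file headers also deposited, is scaled for length and library reads and served only as an alternative detection minimum. RSEM's division of reads makes near-identical and overlapping genes uncertain. Totals were 34658454, 38400092 and 30038114 expected counts in replicates 1, 2 and 3, and intervals and floors cover counting error only.

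Members and lists were chosen with earlier results of these data known. All 6 members may be named, as may all genes of the lists and markers, the nearest protein-coding RefSeq neighbours and the 5 genes nearest in pattern to SOX2. Excess spread was tested in edgeR 4.0.16 (R 4.3.3) on rounded expected counts after filterByExpr and TMM scaling. The deviance of a negative binomial fit of the mean alone, at the trended dispersion, was referred to the chi-square distribution (2 degrees of freedom), with Benjamini-Hochberg adjustment. The script was tested on simulated data. DESeq2 1.42.0 gave alternative size factors and dispersions, and other alternatives left out a replicate, changed the low-count filter, pseudocount or TPM minimum, or changed the length scaling. Log2 CPM used a prior count of 2, and list medians a pseudocount of 1. The length trend was a lowess curve with a span of 0.3. Gene types came from GENCODE release 29, matched for 58261 identifiers (92.8%), and coordinates (1-based) and promoters from RefSeq GRCh38.p14, with promoters matched for 5 of 6 members. Results of 2 marker lists are not reported here. Figures were drawn with matplotlib 3.10.9.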

Additional observations from a re-analysis of the deposited data

How the results depend on the processing

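Of 113 recomputed values, 94 were counted as the same, with neighbour differences judged by their sign alone. The others among the 94 kept their direction and their side of the threshold or moved by less than the spread between replicates. By the 2 SD rule, SOX2 lay apart from SOX3 (0.68 ± 0.21) and SOX1 from SOX2-OT (2.39 ± 0.62) with no length scaling. Some calls by that rule also changed with 1 replicate left out, such as SOX2 minus SOX3 at 0.48 ± 0.17 without replicate 1. With no length scaling the SOXB share of the SOX family was 18.9%, and at a TPM minimum of 5 only 2 members, SOX2 and SOX3, were detected. The SOX21 minus SOX1 difference reversed to -0.54 with no length scaling, and leaving out 1 replicate it ranged from -0.11 to 0.61, being -0.08 without replicate 1 and -0.11 without replicate 3. The count of genes with excess spread, 271 of all tested, was 95 to 117 with 1 replicate left out, where only 2 libraries remain. With the length trend removed, replicate 1 exceeded the mean of the others by 1.64 for SOX1, 1.16 for SOX3 and 0.17 for SOX2-OT, and on the log2(TPM + 0.1) scale by 1.14 for SOX3, while SOX2-OT reversed to -0.24. The cause of these shifts was not tested. No paired analysis was possible because all samples belong to 1 group. The counts of SOX2-OT (at most 115.5) and SOX1-OT (at most 18) limit what can be said of them.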

Other observations

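The protein-coding neighbours of the SOX2 locus did not follow the order of SOX2. DNAJC19, to the left of SOX2-OT, had 41.47, 32.59 and 28.75 TPM in replicates 1, 2 and 3. Like SOX2 it was highest in replicate 1, but it was lowest in replicate 3. ATP11B, to the right, had 7.54, 13.49 and 15.25 TPM and was lowest where SOX2 was highest. Around SOX21, GPR180 had 2.08, 3.09 and 3.35 TPM and ABCC4 had 12.97, 13.64 and 16.01 TPM, neither with the low value in replicate 2 that SOX21 and SOX21-AS1 showed. SPACA7 beside SOX1 and SPANXB1 beside SOX3 were listed at 0 in all libraries. Beside the undetected SOX14, IL20RB had 1.63, 1.78 and 2.41 TPM and CLDN18 had at most 0.27 TPM.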
